A study of Mus musculus with 6 samples.

Results

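The activating transcription factor ATF4 is the central effector of the integrated stress response. The 10 genes described here are Atf4 itself and Ddit3, Atf3, Trib3, Ppp1r15a, Chac1, Ddit4, Asns, Psat1 and Phgdh, which are reported as ATF4 targets or as its partners in that response. They were chosen by name from what is known of the response, when earlier results of these data were already known. They are 10 of the 22600 genes in the deposited table. All 10 passed the filter on low counts that left 15535 genes for testing.

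In the integrated stress response, kinases that sense endoplasmic reticulum stress, amino acid shortage, double-stranded RNA or haem deficiency phosphorylate the translation factor eIF2. General protein synthesis then slows while Atf4 mRNA is translated more, and ATF4 protein drives genes for amino acid synthesis, stress signalling and the reversal of eIF2 phosphorylation. RNA-seq counts measure mRNA, so ATF4 protein and eIF2 phosphorylation were not measured.

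The study asked how pluripotent and differentiated cells fare without TRF2, a protein of the telomere cap whose gene is Terf2. Mouse embryonic stem (ES) cells on a C57BL/6 background, and FLICs, which the labels give as differentiated ES cells, were cultured for 96 h. The groups are FLICs with OHT (n = 1 library, labelled TRF2-/-), untreated FLICs (n = 1, labelled wild-type), ES cells with OHT (n = 2, TRF2-/-) and untreated ES cells (n = 2, wild-type). OHT, the tamoxifen metabolite hydroxytamoxifen, was given for 3 days, and no group had OHT without loss of TRF2, so OHT and TRF2 loss cannot be told apart. The labels do not say how OHT removes TRF2, from which clone the cells came, or whether the libraries of a group were separate cultures, so the p-values speak only of the spread seen among these libraries.

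Total counts per library ran from 23534551 to 43965309. Terf2 followed the labels, at 0.281 and 0.392 CPM (counts scaled to the size of the library) in ES cells with OHT against 18.3 and 19.5 CPM in untreated ES cells, and at 0.114 CPM in FLICs with OHT against 8.27 CPM in untreated FLICs. The summed level of 7 pluripotency markers was 63.6 CPM in FLICs with OHT and 105 CPM in untreated FLICs, against 3237 and 3555 CPM in the treated and 3571 and 3711 CPM in the untreated ES cell libraries. The summed level of 7 fibroblast markers was 1994 CPM in FLICs with OHT and 1141 CPM in untreated FLICs, and at most 11.3 CPM in an ES cell library. Of these 7 markers, 6 were higher in FLICs in edgeR and Thy1 was lower, both untreated and with OHT. Thy1 had 0.641 CPM in FLICs with OHT and 0.556 CPM in untreated FLICs, against means of 6.09 and 4.54 CPM in ES cells. The 2 libraries of ES cells with OHT stood apart from each other: 470 of 12698 genes (3.7%) differed by at least 2-fold on the log2(CPM + 1) scale, against 0 of 12149 between the untreated ES cell libraries. In bulk RNA, fewer cells that express a gene and less RNA per cell cannot be told apart.

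The known DNA element of ATF4 targets, the C/EBP-ATF response element, was looked for in the promoters, and the stretches that hold it are shown as the sequence the genes may share. RefSeq promoter windows (GRCm38.p6, 250 bases before to 50 after each start) were available for all 10 genes, and the letters TGATGNAA were searched on both strands. They occurred in 4 of the 10 genes, Asns, Atf3, Chac1 and Trib3, and in 3.969% of all 32851 windows. The palindrome TGACGTCA, the cyclic AMP response element, occurred in Ppp1r15a alone among the 10 and in 1.79% of all windows. The endoplasmic reticulum stress element, CCAAT and CCACG with 9 bases between them, occurred in none of the 10 and in 0.1187% of all windows. The 30 bases around each match are shown along the strand of the gene, with the matched letters in capitals.
Asns: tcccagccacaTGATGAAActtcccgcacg
Atf3: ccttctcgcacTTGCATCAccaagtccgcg
Chac1: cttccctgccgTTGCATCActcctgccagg
Trib3: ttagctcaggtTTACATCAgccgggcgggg
Ppp1r15a: cgcctctccggTGACGTCAgcacagcgccg
The Asns stretch lies at chr6:7693214-7693243 on the minus strand and reads TGATGAAA, beginning 23 bases before the RefSeq start. In Atf3 (chr1:191183425-191183454, minus strand), Chac1 (chr2:119351038-119351067, plus strand) and Trib3 (chr2:152344028-152344057, minus strand) the element lies on the opposite strand, so the capitals show its reverse complement. Atf3 and Chac1 carry the same letters, TGATGCAA read along the opposite strand, beginning 110 bases and 193 bases before their starts. The Trib3 match, TGATGTAA on the opposite strand, begins 15 bases after the start. The Ppp1r15a match (chr7:45526262-45526291, minus strand) begins 12 bases before the start. A match describes these letters only, and no binding was measured.

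Per kilobase of the deposited gene length, the 10 genes spanned a wide range of levels in each group. In FLICs Atf4 had the highest level per kilobase, at 359 CPM per kilobase with OHT and 369 CPM per kilobase untreated, and Asns, which makes asparagine, took rank 4, at 91.9 CPM per kilobase with OHT and 87.5 untreated. In ES cells Asns came first, with means of 515 CPM per kilobase with OHT and 595 untreated, and Atf4 came next, at 485 CPM per kilobase with OHT and 518 untreated. At the low end stood Trib3 in FLICs (5.41 CPM per kilobase with OHT and 2.67 untreated), Chac1 in ES cells with OHT (3.32) and Atf3 in untreated ES cells (1.75). The 3 genes of amino acid synthesis and Atf4 took the 4 highest ranks in all 4 groups.

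**Figure D1:**
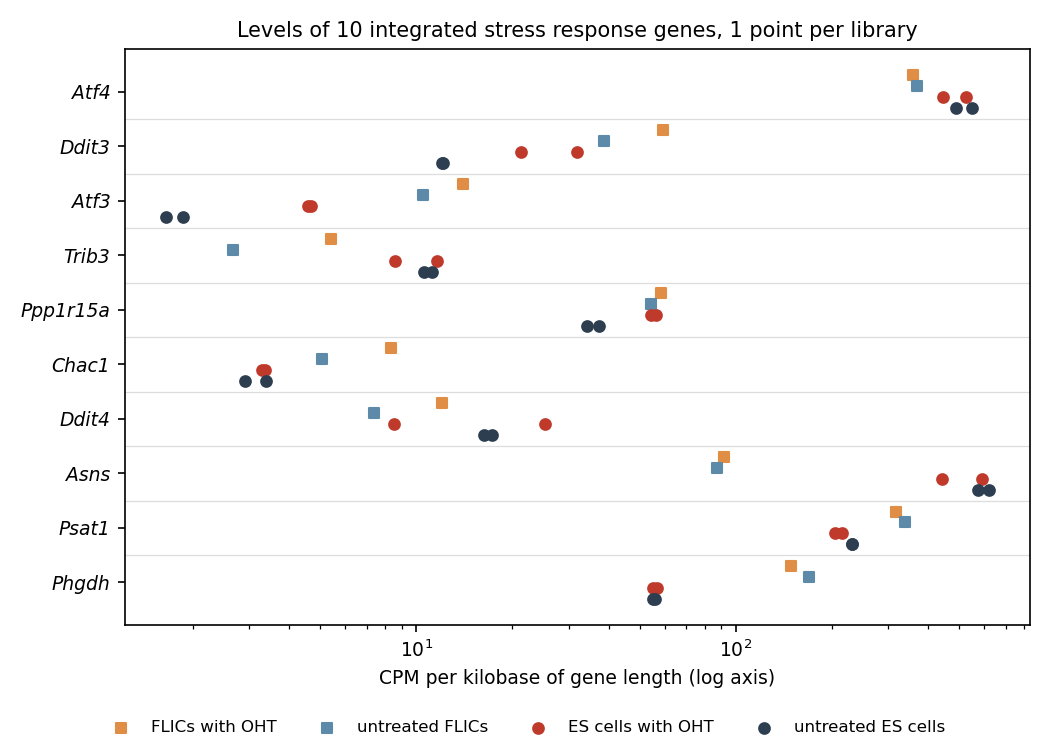
Level of each of the 10 genes in CPM per kilobase of deposited gene length (log axis), 1 point per library, with FLICs as squares and ES cells as circles. Asns lies at 87.5 CPM per kilobase in untreated FLICs against a mean of 595 in untreated ES cells, while Atf3 lies at 10.5 in untreated FLICs against a mean of 1.75 in untreated ES cells.

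In ES cells, the main edgeR fit called none of the 10 genes with OHT. The higher values of Ddit3, Atf3 and Ppp1r15a did not pass its adjusted test. That fit did not use the replicate numbers of the titles, which the labels do not state to be a pairing. With those numbers as a block these 3 genes passed, as given at the end. edgeR's quasi-likelihood test, adjusted over 15535 genes, called 0 of the 10, beside 0.534% of all genes (0.521% higher and 0.0129% lower). At an unadjusted p under 0.05 it gave 3 of the 10, all higher, beside 18.3% of all genes (10.5% higher and 7.79% lower). DESeq2 called 2 of the 10, Ddit3 and Ppp1r15a, beside 2.61% of the genes for which it gave an adjusted p. The median log2 fold change was 0.01 for the 10 genes and -0.0082 for all genes tested. The groups did not overlap in 4 of the 10, with Ddit3, Atf3 and Ppp1r15a higher and Psat1 lower with OHT, beside 52.8% of all genes whose ES cell groups did not overlap. Per direction, 25.2% of all genes were higher and 27.6% lower in that way.

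Atf4 (ENSMUSG00000042406, chromosome 15, 80255184 to 80257541, GRCm38) had 551 and 465 CPM in ES cells with OHT, against 574 and 511 CPM in untreated ES cells. The groups overlapped, and its log2 fold change was -0.09 (SE 0.16, adjusted p = 0.782 in edgeR), with a 95% interval from -0.49 to 0.30. Across the study its order from high to low was untreated ES cells, ES cells with OHT, untreated FLICs and FLICs with OHT. Of the steps between neighbours in that order, the first was tested and did not pass; FLICs have no replicate.

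Ddit3 encodes CHOP, a transcription factor of prolonged endoplasmic reticulum stress (ENSMUSG00000025408, chromosome 10, 127290774 to 127296288). It had 16.1 and 10.7 CPM in ES cells with OHT, from 516 and 274 counts, against 6.06 and 6.10 CPM in untreated ES cells, from 183 and 229 counts. Both libraries with OHT lay above both untreated ones, and replicate 1 was the higher of the treated ones. The means were 13.4 ± 3.79 CPM with OHT and 6.08 ± 0.0267 CPM untreated (SD, n = 2 each), and the log2 fold change was 1.15 (SE 0.24, adjusted p = 0.119 in edgeR; DESeq2 adjusted p = 0.00835). The table holds a further entry under the symbol Ddit3 (ENSMUSG00000116429, 102 bases), which GENCODE M21 places in the leader of the gene at 127290829 to 127293753, and which was counted apart. That upstream frame had 1.09 and 1.37 CPM in ES cells with OHT, against 0.463 and 0.772 CPM in untreated ES cells (log2 fold change 0.97, SE 0.38, adjusted p = 0.259 in edgeR). How reads shared by the 2 entries were split is not given in the sources used here, so each value is uncertain by that split.

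Atf3, a stress-induced repressor and activator of the same bZIP family (ENSMUSG00000026628, chromosome 1, 191170296 to 191218039), was a low gene in ES cells. It had 2.50 and 2.55 CPM in ES cells with OHT, from 80 and 65 counts, against 0.894 and 1.01 CPM in untreated ES cells, from 27 and 38 counts. The groups did not overlap, and the treated libraries nearly coincided. Its log2 fold change of 1.40 (SE 0.24, adjusted p = 0.0851 in edgeR; DESeq2 adjusted p = 0.0760) was the largest of the 10 in ES cells.

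Among the feedback genes of the response, Trib3 encodes a pseudokinase that restrains ATF4 and CHOP (ENSMUSG00000032715, chromosome 2, 152337422 to 152344032). It had 9.11 and 12.3 CPM in ES cells with OHT, against 11.2 and 11.9 CPM in untreated ES cells, and the groups overlapped (log2 fold change -0.11, SE 0.21, adjusted p = 0.811 in edgeR). Ppp1r15a encodes GADD34, which directs protein phosphatase 1 to eIF2 (ENSMUSG00000040435, chromosome 7, 45522916 to 45526268). It had 111 and 107 CPM in ES cells with OHT, against 73.5 and 67.5 CPM in untreated ES cells. The treated libraries lay above the untreated ones with little spread, at a log2 fold change of 0.63 (SE 0.13, adjusted p = 0.123 in edgeR; DESeq2 adjusted p = 0.0102).

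Chac1 encodes an enzyme that degrades glutathione (ENSMUSG00000027313, chromosome 2, 119351229 to 119354381). It had 2.25 and 2.20 CPM in ES cells with OHT, against 1.95 and 2.26 CPM in untreated ES cells, from 56 to 85 counts per library. Its log2 fold change was 0.07 (SE 0.24, adjusted p = 0.898 in edgeR), within an interval from -0.52 to 0.67.

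None of the genes of amino acid synthesis passed the test in ES cells. Asns (ENSMUSG00000029752, chromosome 6, 7675169 to 7693254) had 989 and 744 CPM in ES cells with OHT, against 1041 and 961 CPM in untreated ES cells (log2 fold change -0.21, SE 0.18, adjusted p = 0.573 in edgeR). Psat1, an aminotransferase of serine synthesis (ENSMUSG00000024640, chromosome 19, 15904678 to 15947337), had 249.6 and 236 CPM in ES cells with OHT, against 268 and 269 CPM in untreated ES cells. Both treated values lay below both untreated ones, but the log2 fold change of -0.14 (SE 0.14, adjusted p = 0.595 in edgeR) did not pass. Phgdh, which encodes the first enzyme of serine synthesis (ENSMUSG00000053398, chromosome 3, 98313170 to 98339990), had 93.7 and 91.3 CPM with OHT, against 91.0 and 92.1 CPM untreated. Its log2 fold change of 0.01 had a 95% interval from -0.31 to 0.34 (adjusted p = 0.968 in edgeR).

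**Figure D2:**
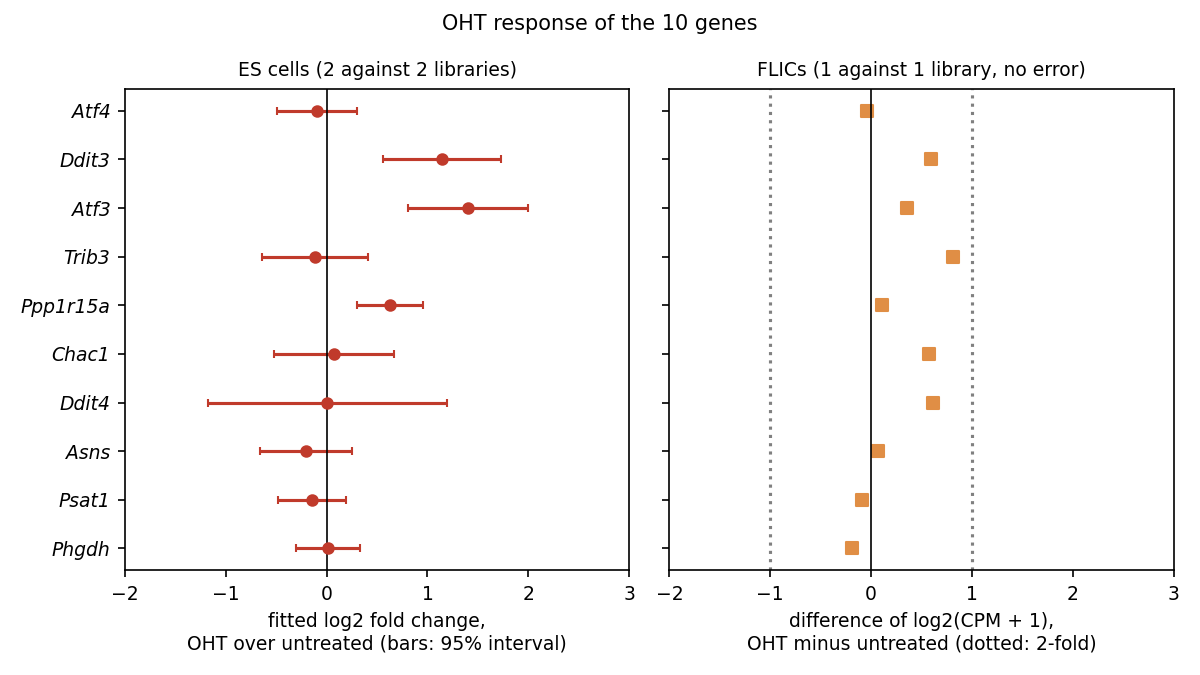
Left, fitted log2 fold change of OHT over untreated ES cells with its 95% interval for each of the 10 genes; right, difference of log2(CPM + 1) between FLICs with OHT and untreated FLICs, with dotted lines at 2-fold. The intervals, which are not adjusted, lie above 0 for Ddit3, Atf3 and Ppp1r15a in ES cells. In FLICs no gene reaches 2-fold on log2(CPM + 1).

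Calls in ES cells depended on which library was left out. Each of the 4 fits that left out 1 ES cell library held a single library in that group, so only sizes are given here. By construction, a fit without a treated library takes its spread from the untreated pair alone, and a fit without an untreated library takes it from the treated pair alone. Over these 4 fits the log2 fold change ran from 0.82 to 1.44 for Ddit3 and from 1.32 to 1.49 for Atf3. It ran from 0.57 to 0.69 for Ppp1r15a, from -0.42 to 0.02 for Asns and from -0.94 to 0.60 for Ddit4.

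Ddit4 was the gene of the 10 that separated the libraries of ES cells with OHT. It encodes REDD1, an inhibitor of the growth kinase mTORC1 that p53 also activates (ENSMUSG00000020108, chromosome 10, 59949669 to 59951834). It had 5.87 and 17.4 CPM in ES cells with OHT, from 188 and 444 counts, against 11.2 and 11.8 CPM in untreated ES cells, from 339 and 444 counts. The treated libraries lay on either side of the untreated ones, so the log2 fold change of 0.01 has a wide error (SE 0.48, adjusted p = 0.9995 in edgeR). Leaving out OHT replicate 2 gave -0.94, and leaving out replicate 1 gave 0.60, each from a single treated library.

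Ddit4 was 2.97-fold higher in OHT replicate 2 than in OHT replicate 1, a difference of 1.42 on log2(CPM + 1), and no other of the 10 genes passed 2-fold, beside 3.7% of all genes. The ratio of OHT replicate 2 to OHT replicate 1 was 0.667 for Ddit3 and 0.752 for Asns. Trp53, the gene of p53, was also higher in OHT replicate 2 than in OHT replicate 1, at 83.1 against 8.39 CPM. Both values lay below the 299 and 345 CPM of untreated ES cells, whereas Ddit4 lay above its untreated values in OHT replicate 2. The summed level of Trp53 and 9 of its targets was 320 and 1080.0 CPM in ES cells with OHT, against 1156 and 1235 CPM in untreated ES cells. Mdm2, the p53 ubiquitin ligase, had 79.8 and 356 CPM in ES cells with OHT, against 182 and 202 CPM in untreated ES cells. Sesn2, a stress gene reported as a target of both p53 and ATF4, had 29.9 and 61.9 CPM with OHT, against 75.9 and 79.9 CPM untreated. The summed level of 4 smooth muscle markers was 6.83 and 15.5 CPM in ES cells with OHT, against 3.94 and 4.92 CPM in untreated ES cells. Within that list Acta2 had a ratio of OHT replicate 2 to OHT replicate 1 of 0.911. Other marker sums also differed between the treated libraries, at 90.6 and 172 CPM for endothelial and 36.2 and 66.7 CPM for blood markers. The epithelial sum went the other way, at 1083 and 898 CPM. The part of these differences in the values of Ddit4 was not tested.

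**Figure D3:**
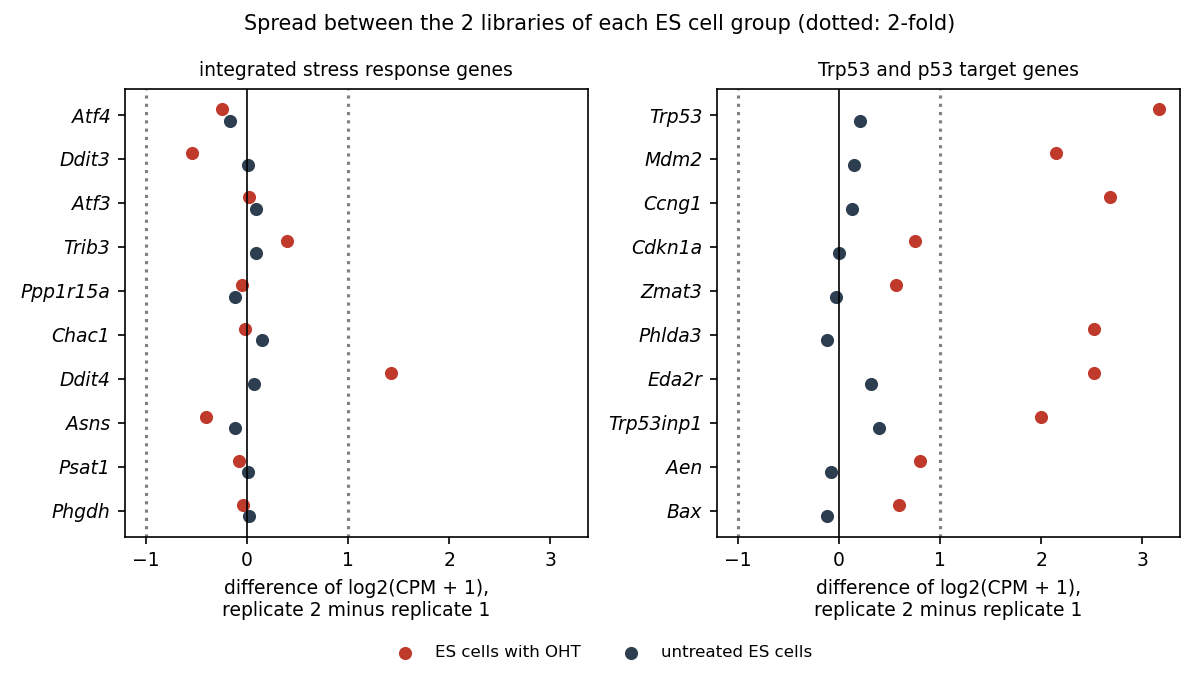
Difference of log2(CPM + 1) between replicate 2 and replicate 1 within ES cells with OHT and within untreated ES cells, for the 10 genes (left) and for Trp53 with 9 p53 targets (right); dotted lines mark 2-fold. Ddit4 alone passes 2-fold on the left, at 1.42 with OHT, and Trp53 reaches 3.16 on the right.

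In FLICs, where each condition was a single library, the OHT difference was described without a test, and none of the 10 genes passed 2-fold on log2(CPM + 1), beside 0.526% of 11789 genes measured. The differences were positive in 7 of the 10, with a median of 0.23, beside a median of 0.03 for all genes measured, of which 6649 were positive. Intervals of counts are exact Poisson 95% intervals and cover counting error only.

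Trib3 differed most in FLICs, with 5.74 CPM with OHT (interval 5.05 to 6.50) against 2.84 CPM untreated (2.29 to 3.48), a ratio of 2.02 and a difference of 0.81 on log2(CPM + 1). Ddit3 had 29.9 CPM in FLICs with OHT (28.3 to 31.6), against 19.4 CPM in untreated FLICs (17.96 to 21.0). Ddit4 had 8.28 CPM with OHT (7.45 to 9.18), against 5.06 CPM untreated (4.32 to 5.90). The spread between cultures of FLICs is not known.

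Chac1 had 5.56 CPM in FLICs with OHT (4.88 to 6.30), against 3.40 CPM in untreated FLICs (2.79 to 4.09). Atf3 had 7.60 CPM with OHT (6.80 to 8.46), against 5.71 CPM untreated (4.92 to 6.60). The remaining 5 genes differed by less than 0.2 in either direction. Atf4 had 376 CPM in FLICs with OHT against 386 CPM in untreated FLICs, Asns 155 against 147 CPM, and Ppp1r15a 115 against 107 CPM. Psat1 had 368 CPM with OHT against 392 CPM untreated, and Phgdh 245 against 279 CPM.

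Beside these values, the summed fibroblast markers were 1994 CPM with OHT against 1141 CPM untreated, the summed smooth muscle markers 9451 against 7137 CPM and the summed pluripotency markers 63.6 against 105 CPM, so the FLICs libraries also differed in cell type markers. Of the smooth muscle sum, Acta2 alone had 7921 CPM with OHT and 5936 CPM untreated. Myh11, the marker of that list that was not higher with OHT, had 0.275 CPM with OHT and 0.309 CPM untreated. The part of these marker differences in the values of the 10 genes was not tested.

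Whether OHT acted differently in FLICs and in ES cells was tested as an interaction, which assumes that a single FLICs library varies like an ES cell library. edgeR called 0 of the 10, beside 0% of all genes; 2 of the 10 had an unadjusted p under 0.05, beside 6.8% of all genes, and DESeq2 called none of the 10. Those were Trib3, with a log2 difference of 1.13 (95% interval 0.19 to 2.07, adjusted p = 0.671 in edgeR), and Atf3, with -0.99 (-1.94 to -0.04, adjusted p = 0.724 in edgeR). With each ES cell library left out in turn, the difference ran from 0.92 to 1.32 for Trib3 and from -1.08 to -0.90 for Atf3. It ran from -0.82 to -0.20 for Ddit3, from 0.11 to 1.65 for Ddit4 and from -0.58 to -0.46 for Ppp1r15a. For Atf4 the difference was 0.06, with an interval from -0.63 to 0.74.

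Asns and Trib3 were lower and Ddit3, Atf3, Psat1 and Phgdh were higher in FLICs than in ES cells, both untreated and with OHT. Without untreated ES cell replicate 1 or 2, both Psat1 calls and the Trib3 call with OHT were lost (adjusted p from 0.107 to 0.262 in edgeR). Among untreated cells, edgeR called 7 of the 10, with 5 higher and 2 lower, beside 54.9% of all genes (26.2% higher and 28.7% lower). With OHT it also called 7 of the 10, with 5 higher and 2 lower, beside 57.7% of all genes (28.4% higher and 29.3% lower). A call was common in these comparisons, so nothing is read from the counts and the sizes follow. The comparisons hold different libraries but share the spread estimated from the ES cell pairs, and they use the same ES cell libraries as the OHT comparison above.

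Asns fell most. It had 147 CPM in untreated FLICs against 1001 ± 56.6 CPM in untreated ES cells (SD, n = 2), with -2.76 as the log2 fold change (SE 0.26, adjusted p = 0.000508 in edgeR), or 6.80-fold lower. With OHT it had 155 CPM in FLICs against 867 ± 173 CPM in ES cells (log2 fold change -2.49, SE 0.26, adjusted p = 0.000673 in edgeR). Every FLICs value lay below every ES cell value.

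Phgdh and Psat1, which catalyse the first steps of serine synthesis, were higher in FLICs. Phgdh had 279 CPM in untreated FLICs against 91.6 ± 0.773 CPM in untreated ES cells (log2 fold change 1.61, SE 0.15, adjusted p = 0.000512 in edgeR), and with OHT 245 CPM in FLICs against 92.5 ± 1.72 CPM in ES cells (1.41, SE 0.15, adjusted p = 0.000808). Psat1 had 392 CPM in untreated FLICs against 268 ± 0.779 CPM in untreated ES cells (0.55, SE 0.16, adjusted p = 0.0327 in edgeR). With OHT, Psat1 had 368 CPM in FLICs against 243 ± 9.31 CPM in ES cells (0.60, SE 0.16, adjusted p = 0.0226 in edgeR). Both Psat1 calls were lost without untreated ES cell replicate 1 or 2 (adjusted p from 0.131 to 0.262 in edgeR), with the fold change between 0.54 and 0.60. Psph, the enzyme of the last step, named here after its values were seen, had 24.4 CPM in untreated FLICs against 27.4 ± 1.49 CPM in untreated ES cells (-0.16, SE 0.22, adjusted p = 0.546 in edgeR). With OHT, Psph had 24.9 CPM in FLICs and 29.1 ± 5.32 CPM in ES cells (-0.23, SE 0.22, adjusted p = 0.406 in edgeR).

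Of the transcription factors, Atf3 rose most in FLICs, with 5.71 CPM in untreated FLICs against 0.953 ± 0.0832 CPM in untreated ES cells (log2 fold change 2.58, SE 0.27, adjusted p = 0.000724 in edgeR). With OHT it had 7.60 CPM in FLICs against 2.52 ± 0.0370 CPM in ES cells (1.59, SE 0.26, adjusted p = 0.00353 in edgeR). Ddit3 had 19.4 CPM in untreated FLICs against 6.08 ± 0.0267 CPM in untreated ES cells (1.68, SE 0.27, adjusted p = 0.00381 in edgeR), and with OHT 29.9 CPM in FLICs against 13.4 ± 3.79 CPM in ES cells (1.15, SE 0.27, adjusted p = 0.0134). Its upstream frame was also called, at 2.21 among untreated cells (adjusted p = 0.00649 in edgeR) and 1.46 with OHT (adjusted p = 0.0234). Atf4 itself was not called: 386 CPM in untreated FLICs stood against 543 ± 44.1 CPM in untreated ES cells (log2 fold change -0.49, SE 0.20, adjusted p = 0.0836 in edgeR). It was -0.43 with OHT (adjusted p = 0.110 in edgeR). With each ES cell library left out in turn, the untreated difference of Atf4 ran from -0.57 to -0.40. The difference with OHT ran from -0.57 to -0.31. Whether Atf4 was called depended on the library left out, as each such fit takes its spread from 1 ES cell pair.

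Trib3 had 2.84 CPM in untreated FLICs against 11.6 ± 0.521 CPM in untreated ES cells (log2 fold change -2.02, SE 0.30, adjusted p = 0.00255 in edgeR). With OHT it had 5.74 CPM in FLICs against 10.7 ± 2.26 CPM in ES cells (-0.90, SE 0.27, adjusted p = 0.0329 in edgeR), a call lost without untreated ES cell replicate 1 or 2 (adjusted p = 0.107 and 0.108). Ppp1r15a rose by 0.60 in untreated FLICs, at 107 CPM against 70.5 ± 4.25 CPM in untreated ES cells (SE 0.16, adjusted p = 0.0213 in edgeR), and this call was lost without untreated ES cell replicate 1 or 2 (adjusted p = 0.154 and 0.240). With OHT its log2 fold change was 0.08 (adjusted p = 0.679 in edgeR).

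Chac1 had 3.40 CPM in untreated FLICs against 2.11 ± 0.219 CPM in untreated ES cells (log2 fold change 0.68, SE 0.28, adjusted p = 0.0852 in edgeR). With OHT it had 5.56 CPM in FLICs, against 2.22 ± 0.0361 CPM in ES cells (1.32, SE 0.27, adjusted p = 0.00873 in edgeR). The interaction for Chac1 did not pass (adjusted p = 0.803 in edgeR), nor did that for Ppp1r15a (adjusted p = 0.739), so a call in one comparison and not in the other is not shown to be a difference. Among untreated cells, the Chac1 difference ran from 0.58 to 0.80 with each ES cell library left out in turn, and its call depended on that library. Ddit4 had 5.06 CPM in untreated FLICs against 11.5 ± 0.422 CPM in untreated ES cells (-1.19, SE 0.63, adjusted p = 0.155 in edgeR) and with OHT 8.28 CPM in FLICs against 11.6 ± 8.16 CPM in ES cells (-0.48, SE 0.60, adjusted p = 0.512). Without OHT-treated ES cell replicate 2 the Ddit4 difference with OHT was 0.48, and without replicate 1 it was -1.08. The untreated difference of Ddit4 ran from -1.22 to -1.15 over these fits, and its call depended on the library left out.

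**Figure D4:**
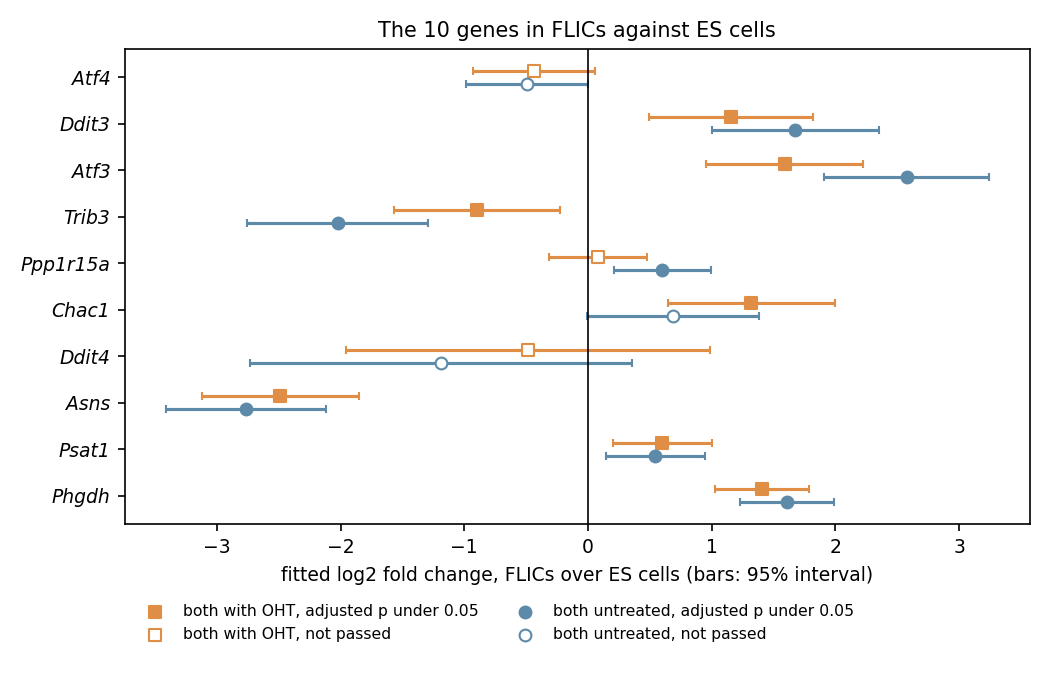
Fitted log2 fold change of FLICs over ES cells with its 95% interval for each of the 10 genes, with OHT (squares) and untreated (circles); filled symbols have an adjusted p under 0.05. Asns lies lowest at -2.76 untreated and -2.49 with OHT, and Atf3 highest at 2.58 and 1.59.

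The genes around the 10 were described by lists of the pathway, none of which had a call with OHT in ES cells. Over all 15535 genes tested, 7881 were negative in that comparison, 10.5% were higher and 7.79% lower at an unadjusted p under 0.05, and nothing particular to a list is read from its counts. The 14 other genes of serine, one-carbon and amino acid synthesis had a median log2 fold change of -0.38, with 11 negative and 7 lower at an unadjusted p under 0.05. Pycr1, an enzyme of proline synthesis, averaged 4.35 ± 0.503 CPM in ES cells with OHT and 10.98 ± 1.34 CPM in untreated ES cells (-1.34, SE 0.21, adjusted p = 0.0700 in edgeR). Aldh18a1, the enzyme before it, had a log2 fold change of -0.70 (adjusted p = 0.149 in edgeR).

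The 20 cytosolic tRNA synthetases, many of them ATF4 targets, had a median of -0.24 in ES cells with OHT, with 19 negative and 5 lower at an unadjusted p under 0.05. Leaving out OHT replicate 2 moved that median to -0.03, and leaving out replicate 1 moved it to -0.36. The 4 eIF2 kinases were all negative (median -0.31), with Eif2ak1, the haem-regulated kinase, at -0.36 (adjusted p = 0.255 in edgeR). The median was 0.16 for 14 other reported ATF4 targets, among them Sqstm1, an autophagy receptor, at 0.69 (adjusted p = 0.120 in edgeR). It was -0.19 for 9 amino acid transporters, -0.04 for 13 bZIP partners, -0.06 for 8 eIF2 and eIF2B subunits and -0.05 for 5 genes of eIF2 dephosphorylation. For 15 endoplasmic reticulum stress genes of the ATF6 and IRE1 arms it was -0.07 and for 8 mitochondrial stress genes -0.23. The 10 immediate early genes, which many stimuli induce, had a median of 0.63 and 4 higher at an unadjusted p under 0.05.

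Without OHT replicate 1 edgeR called 10 of the 14 synthesis genes, 9 of them lower, and 12 of the 20 synthetases, all lower, beside 40.2% of all genes (20.3% lower). Without OHT replicate 2 it called 8 of the synthesis genes, 7 of them lower, and 1 of the synthetases, lower, beside 28.7% of all genes (13.9% lower). The other lists had 0 to 7 calls without OHT replicate 1 and 0 to 8 without OHT replicate 2, apart from the p53 list with 3 and 10.

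Between untreated FLICs and untreated ES cells, 10 of the 14 other synthesis genes were lower and none higher, beside 28.7% lower and 26.2% higher of all genes. The list counts that follow for untreated cells have the same background. Cth and Cbs, which make cysteine from homocysteine, fell by 5.79 and 5.24 on the log2 scale (adjusted p = 4.17e-05 and 0.000772 in edgeR), and Bcat1, a branched-chain aminotransferase, fell by 3.17 (adjusted p = 0.000141). With OHT, 7 were lower and 2 higher in FLICs, beside 29.3% lower and 28.4% higher of all genes. The 2 were Aldh18a1 at 1.42 and Pycr1 at 0.73 (adjusted p = 0.00229 and 0.0447 in edgeR). Of the amino acid transporters, 4 of 9 were lower and 1 higher in untreated FLICs, with Slc7a3, a carrier of basic amino acids, falling by 2.83 (adjusted p = 0.000168 in edgeR).

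Of the 13 bZIP partners and related factors, 9 were higher and 1 lower in untreated FLICs. Cebpb, which dimerises with ATF4, had 40.7 CPM in untreated FLICs against 4.46 ± 0.810 CPM in untreated ES cells (log2 fold change 3.19, adjusted p = 0.000216 in edgeR), and Jdp2 was higher by 3.25 (adjusted p = 0.000429). Of the 14 other reported ATF4 targets, 6 were lower and 2 higher in untreated FLICs. Sesn2 fell by 4.29 (adjusted p = 0.00133 in edgeR), while Ndrg1 rose by 1.90 (adjusted p = 0.000654). Of the 15 endoplasmic reticulum stress genes 5 were higher and none lower, led by Hspa5, the chaperone BiP, at 1.22 (adjusted p = 0.00235 in edgeR). Of the tRNA synthetases 10 of 20, and of the eIF2 and eIF2B subunits 4 of 8, were lower and none higher. Of the eIF2 kinases Eif2ak1 was called, at -0.68 (adjusted p = 0.0191 in edgeR), of the genes of eIF2 dephosphorylation 2 of 5 were higher, and of the mitochondrial stress genes 3 of 8 were lower. In the p53 list 7 of 10 were lower and none higher, and of the immediate early genes 8 of 10 were higher. Trp53 itself had 8.98 CPM in untreated FLICs against a mean of 322 CPM in untreated ES cells (log2 fold change -5.16, adjusted p = 0.0267 in edgeR). Its part in the lower values of reported ATF4 targets was not tested.

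Some of these counts depended on single ES cell libraries. Without an untreated replicate they were smaller for the synthetases, the eIF2 and eIF2B subunits and the bZIP factors. They were also smaller for the endoplasmic reticulum stress genes, the eIF2 kinases and the mitochondrial stress genes. Without an OHT-treated replicate they were larger for the other ATF4 targets, the endoplasmic reticulum stress genes, the eIF2 kinases and eIF2 dephosphorylation. The count of all genes called changed in these fits too, so nothing particular to a list is read from these changes.

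**Figure D5:**
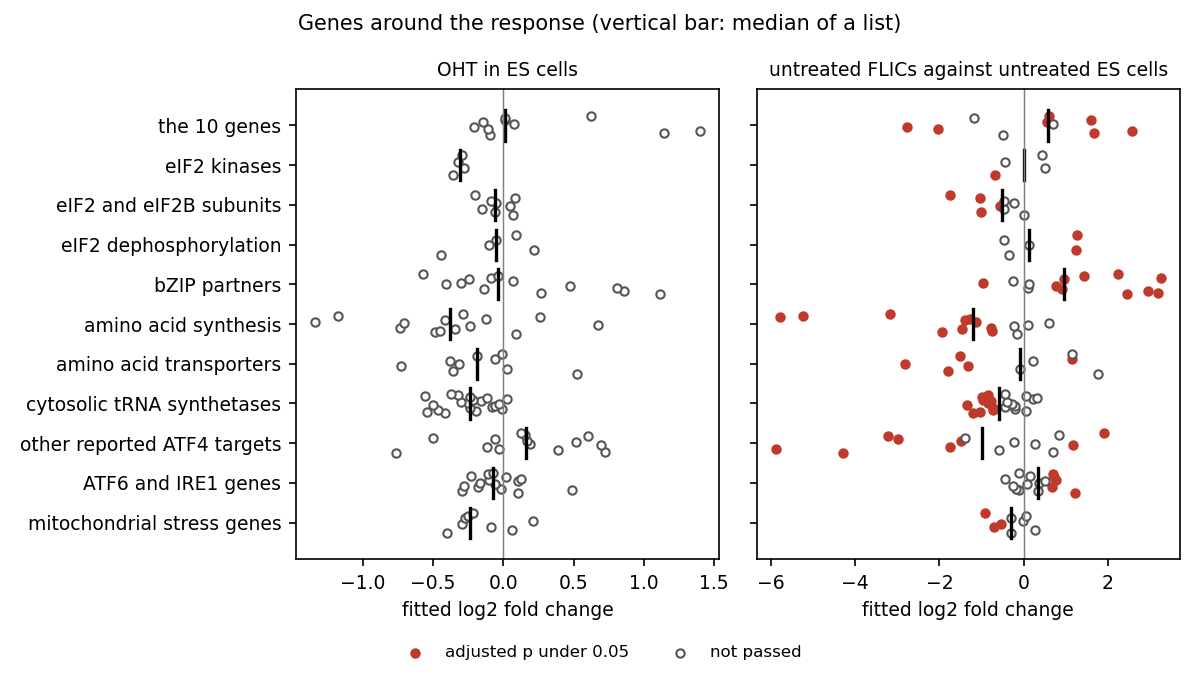
Fitted log2 fold change of the 10 genes and of the surrounding lists, 1 point per gene with a vertical bar at the median of the list, for OHT in ES cells (left) and for untreated FLICs against untreated ES cells (right); filled points have an adjusted p under 0.05. No point is filled on the left, and the amino acid synthesis list has its median at -0.38 on the left and -1.20 on the right.

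The genes whose profile over the 6 libraries was most like that of Atf4 were Ppp1cc, Unc45a, Armc6, Exosc10 and Ppwd1, among 8872 genes whose mean reached 10 CPM. Their root mean square difference from Atf4 was 0.0356 to 0.0462 on centred log2 CPM. The mean profile of the 10 genes, which hides their opposite directions, stood at 0.21 in FLICs with OHT, -0.07 in untreated FLICs, 0.03 and 0.08 in ES cells with OHT, and -0.13 and -0.13 in untreated ES cells. It was most like Alas1, Ndufv3, Snx6, Sgpl1 and Wdyhv1, at 0.0268 to 0.0568.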

How the data were processed

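The deposited file is a table of counts per gene, whole numbers that the authors did not normalize, for 22600 Ensembl genes in 6 libraries, with a length for each gene. Libraries came from total RNA and a stranded TruSeq kit, per the labels' protocols. Salmon, DESeq2 and the build GRCm38 are named in the submitters' processing notes, with neither settings nor an annotation version. The lengths were multiples of 3 for 77.6% of genes, so values per kilobase are close to values per coding length. Positions are from GENCODE M21 on GRCm38.

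The counts were analysed with edgeR 4.0.16 (limma 3.58.1, R 4.3.3). Its filterByExpr step left 15535 genes, which were scaled by TMM. The quasi-likelihood fit had 4 group means, 2 residual and 3.79 prior degrees of freedom, so a FLICs library is assumed to vary like an ES cell library. Benjamini-Hochberg adjustment ran over all genes tested, with calls at 0.05. CPM use TMM-scaled library sizes; a count of 0 allows up to 3 counts, or 0.0686 to 0.118 CPM per library, for counting error only. Comparisons of 1 library with 1 were described by log2(CPM + 1), counting genes past 2-fold whose mean was at least 1 CPM. The procedure was tested on simulated data in which both treated libraries shared 1 mean per gene. The outcome is not given here, and nothing is read from it. The ES cell libraries of each group differed beyond counting noise, with a chi-square of 66.3 (OHT) and 13.2 (untreated) for each degree of freedom, and were kept as separate samples.

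The 10 genes, the lists and the tests were chosen with earlier results of these data known. Named genes were the 10, up to 4 called per list and direction by size, or the 2 with the smallest p where none was called, and the 5 nearest to each profile. The alternatives were scaling by relative log expression, DESeq2 1.42.0, testing without a count filter, requiring 5 CPM in 2 libraries, a replicate block, and leaving out each ES cell library.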

Additional observations from a re-analysis of the deposited data

How the results depend on the processing

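For the 10 genes, the count called with OHT in ES cells was 0, but 3 with a replicate block, 2 with DESeq2, and 0 to 5 when an ES cell library was left out. With the block these were Ddit3 (1.12, edgeR adjusted p = 0.00533), Atf3 (1.40, adjusted p = 0.00843) and Ppp1r15a (0.63, adjusted p = 0.0290). The replicate numbers come from the titles, ESC and ESC_OHT for replicate 1 and ESC2 and ESC2_OHT for replicate 2. The labels do not state that these titles pair the ES cell libraries. Across 15535 genes the deviations of same-numbered libraries correlated at 0.437, which with 2 pairs does not establish a pairing. The count of all genes with OHT in ES cells was 83, and 262 with no count filter, 46 with at least 5 CPM in 2 libraries, 1206 with the replicate block, 392 with DESeq2 and 18 to 6165 when an ES cell library was left out. For the interaction, 0 to 4 of the 10 and 0 to 2804 of all genes were called when a library was left out, and DESeq2 called 21 genes. For untreated FLICs against untreated ES cells the count of all genes ran from 5375 to 12025 when a library was left out. Ddit4 ran from -0.94 (without OHT replicate 2) to 0.60 (without OHT replicate 1) with OHT in ES cells, and from -1.08 (without replicate 1) to 0.48 (without replicate 2) for FLICs with OHT against ES cells with OHT. The causes were not tested, beyond the fewer libraries and the other spread that each such fit holds by construction. Depth limits Atf3 and Chac1 in ES cells, at 27 to 85 counts per library. The single FLICs libraries give no spread of their own.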
